A study of Macaca mulatta with 4 samples.

Results

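The peaks described here are the sites called as HIF-1α-bound on the numbered chromosomes of rhesus macaque heart 6 h after infarction. They were chosen by position alone, as every row on chromosomes 1 to 20 of the list that the authors called from the 6 h HIF-1α library against the 6 h input, and they number 8236 of the 13351 peaks in that list (61.7%). Of the remaining 5115 peaks, 114 were on chromosome X, 9 on chromosome Y and 4992 on sequences without a chromosome number or letter. The tissue was infarcted heart muscle of male rhesus monkeys whose left anterior descending coronary artery had been ligated, and the antibody was an anti-HIF-1 alpha antibody from Abcam. The input was chromatin from heart at the same time point, not treated with antibody. The series also holds a ChIP library and an input at 4 weeks, so that each of its 4 samples is the sole library of its group. Neither the number of animals behind a library nor their age is given in the sources used here. Nothing below has a replicate check, and no test was made.

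HIF-1 is a transcription factor made of an oxygen-regulated α subunit and a stable β subunit. With oxygen present, prolyl hydroxylases mark HIF-1α for destruction by the von Hippel-Lindau ubiquitin ligase. When oxygen is short, as in heart muscle downstream of a blocked artery, HIF-1α accumulates, pairs with its partner and binds hypoxia response elements, which are short DNA motifs near genes of glycolysis, vessel growth and red cell production such as VEGFA, SLC2A1 and EPO. Copper is known to affect HIF-1 activity, and the series was made to study this. The list holds 3 columns, a sequence name, a start and an end, so it shows where peaks were called and how wide they were, and neither how strong they were nor how many reads lay behind them. Genes and motifs at the peaks were not analysed here, because no genome or annotation of the build of the files was used. For the same reason, heart muscle markers and known HIF-1 targets could not be used to check the labels.

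Called HIF-1α peaks on the numbered chromosomes were short and covered little sequence. Their median width was 253 bp (95% order-statistic interval 251 to 256 bp), with quartiles at 202 and 333 bp and a mean of 295 bp ± 127 (SD over 8236 peaks). The distribution was cut off at its lower end. Exactly 199 bp, the narrowest width, was found in 1908 peaks, or 23.2% of them (exact binomial 95% interval 22.3 to 24.1%). The upper tail was thin. Of all 8236 peaks, 2766 (33.6%) were wider than 300 bp, 542 (6.58%) wider than 500 bp, 68 (0.826%) wider than 800 bp and 21 (0.255%) wider than 1000 bp. Together the peaks covered 2.43 Mb, or 0.0910% of the extent of the 20 chromosomes, and the widest 10% of peaks held 20.03% of the covered bases.

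The widest peaks on the numbered chromosomes were found standing alone, in small groups and inside dense runs. The widest was on chromosome 8 at 143120329 to 143122246 (1918 bp), with its nearest neighbour 72.5 kb away. The next, on chromosome 1 at 130256360 to 130258072 (1713 bp), was likewise alone, at 61.1 kb from its nearest neighbour. The third was on chromosome 8 at 226705 to 228140 (1436 bp), in a run of 3 peaks. Among the 10 widest, 5 lay in runs of at least 5 closely spaced peaks. These were on chromosome 17 at 9175821 to 9177176 (1356 bp) and at 2380196 to 2381323 (1128 bp), on chromosome 2 at 7103844 to 7105097 (1254 bp) and at 7130970 to 7132122 (1153 bp), and on chromosome 3 at 55746292 to 55747524 (1233 bp). The other two, on chromosome 10 at 58114341 to 58115499 (1159 bp) and on chromosome 1 at 54866313 to 54867408 (1096 bp), had their nearest neighbours 118 kb and 161 kb away, respectively. Of the 21 peaks over 1000 bp, 10 were in runs of at least 5 peaks, 4 in smaller runs and 7 had no peak within 10 kb.

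Neighbouring peaks were usually more than 100 kb apart, but a minority lay within a few kilobases of each other. The gap, counted from the end of a peak to the start of the next on the same chromosome, had a median of 139 kb (134 to 145 kb) over 8216 gaps, with quartiles at 37.7 and 377 kb. The mean gap was 324 kb ± 528 (SD), which is 2.33 times the median. The coefficient of variation, the SD over the mean, was 1.63. Evenly spaced peaks would have a value near 0, and peaks placed independently at a single rate a value near 1. By size class, 515 gaps (6.27%) were under 1 kb, 644 (7.84%) were 1 to 10 kb, 2311 (28.1%) were 10 to 100 kb, 4125 (50.2%) were 100 kb to 1 Mb and 621 (7.56%) were 1 Mb or longer. On a log scale with 4 steps per factor of 10, most gaps formed a single hump. It was highest at 178 to 316 kb (1196 gaps) and fell to 198 gaps at 5623 to 10000 bp. Below this the counts no longer fell steadily. They ran between 125 and 177 per step from 316 to 5623 bp and stood at 169 at 178 to 316 bp. The smallest gap was 152 bp.

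**Figure D1:**
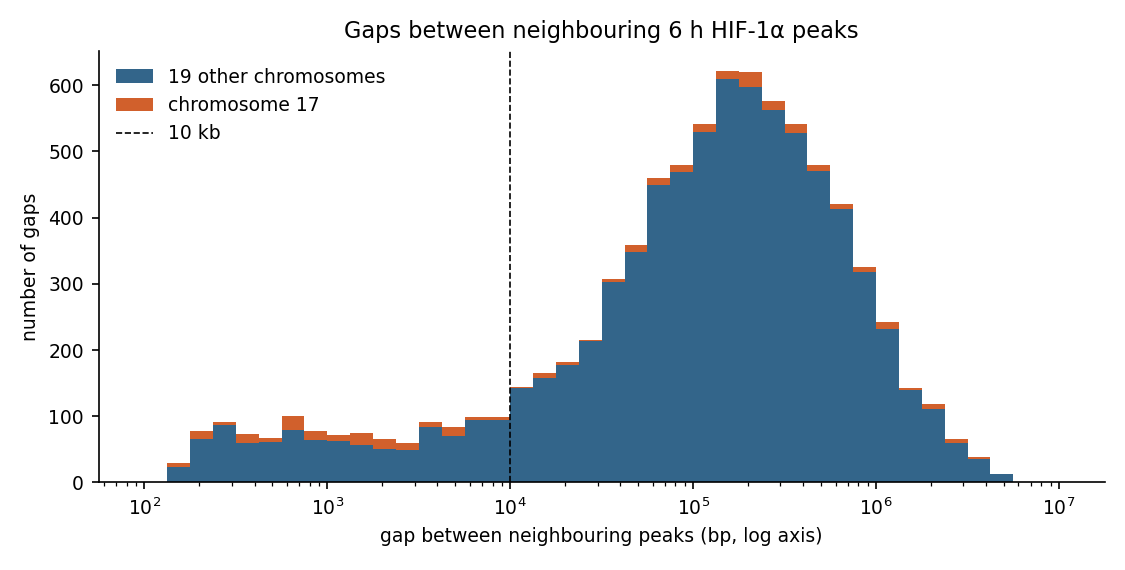
Number of gaps between neighbouring 6 h HIF-1α peaks (vertical axis) by gap length in bp (horizontal log axis), with chromosome 17 stacked in orange on the 19 other chromosomes and a dashed line at 10 kb. The main hump lies above 10 kb, and a low shelf of 1159 gaps (14.1%) lies at or below it.

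Peaks with a close neighbour had a higher median width than peaks standing alone, and the median fell from class to class with distance. Where the nearest peak was under 1 kb away, the median width was 279 bp (270 to 288 bp, 949 peaks). It was 264 bp (256 to 274 bp, 950 peaks) at 1 to 10 kb and 253 bp (249 to 258 bp, 3235 peaks) at 10 to 100 kb. At 100 kb to 1 Mb it was 244 bp (240 to 248 bp, 2987 peaks), and at 1 Mb or more 233 bp (215 to 257 bp, 115 peaks). Intervals of adjacent classes overlap in part, while those of the closest and the 100 kb to 1 Mb classes do not. The share of peaks at the narrowest width went the other way, from 15.9% (13.6 to 18.4%) in the closest class over 18.4%, 23.2% and 26.6% to 33.04% (24.6 to 42.4%) in the most distant. Peaks over 500 bp made up 12.3% (10.3 to 14.6%) of the closest class and 2.61% (0.541 to 7.43%) of the most distant. Neighbouring peaks are not independent, so these intervals, which reflect counting alone, are too narrow.

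Part of this difference belonged to the densest runs. With runs of at least 5 peaks left out, the median of the closest class was 263 bp (252 to 274 bp, 715 peaks), against 279 bp with them. That of the 1 to 10 kb class was then 257 bp (247 to 266 bp, 821 peaks). These intervals overlapped each other and that of the 10 to 100 kb class, which stayed at 253 bp (249 to 258 bp). With chromosome 17 left out, the closest class had a median of 273 bp (263 to 284 bp). By chromosome, peaks with a neighbour within 10 kb had the higher median width on 16 of 20 chromosomes and the lower one on 4, namely chromosomes 2, 9, 14 and 20. The differences were 72 bp on chromosome 13 (310.5 against 238.5 bp), 69 bp on chromosome 17 (307 against 238 bp) and 65.5 bp on chromosome 18 (316 against 250.5 bp). They were within 4 bp on chromosomes 2, 3, 15 and 20. Outside runs of at least 5 peaks, those with a close neighbour had the higher median on 12 of 20 chromosomes. Their median was then 284.5 bp on chromosome 13, 246 bp on chromosome 17 and 286.5 bp on chromosome 18. The medians of the other peaks, with none within 10 kb, varied little by chromosome, from 233.5 bp on chromosome 11 to 259 bp on chromosome 1.

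**Figure D2:**
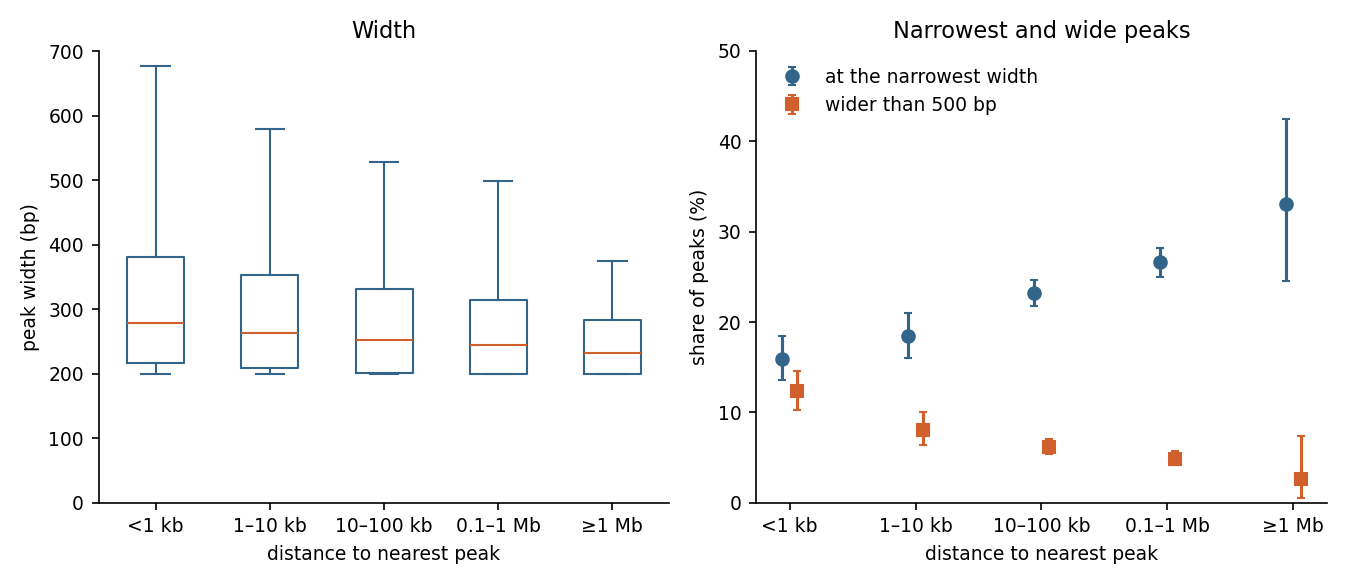
Left, width in bp of 6 h HIF-1α peaks by distance to the nearest peak, with boxes for the quartiles, orange lines for the medians and whiskers from the 5th to the 95th percentile. Right, share of peaks in percent at the narrowest width (blue circles) and over 500 bp (orange squares) with exact binomial 95% intervals, the former rising from 15.9 to 33.04% and the latter falling from 12.3 to 2.61% with distance.

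The density of peaks ranged from 1.86 per Mb on chromosome 5 to 6.57 per Mb on chromosome 19. Over all 20 chromosomes it was 3.09 per Mb (exact Poisson 95% interval 3.02 to 3.16), with the length of a chromosome taken as the end of its last peak in the list. Chromosome 19 had 6.57 peaks per Mb (5.91 to 7.30, 352 peaks) and chromosome 16 had 5.34 (4.84 to 5.88, 412 peaks). They were followed by chromosome 10 with 4.51 (4.09 to 4.97, 419 peaks) and chromosome 20 with 4.10 (3.66 to 4.59, 307 peaks). The interval of chromosome 10 overlaps those of chromosomes 16 and 20. Chromosomes 17 (342 peaks), 1 (806 peaks) and 7 (582 peaks) lay at 3.58, 3.57 and 3.44 per Mb. At the low end were chromosome 5 with 1.86 (1.67 to 2.07, 348 peaks) and chromosome 18 with 2.01 (1.696 to 2.38, 141 peaks), whose intervals overlap. Chromosomes 12 (304 peaks) and 8 (350 peaks) came next at 2.42 (2.16 to 2.71) and 2.43 (2.18 to 2.69) per Mb. Their intervals overlap that of chromosome 18. The counting interval lay above the density of the whole on 7 chromosomes, below it on 8, and included it on 5. Since peaks group together, these intervals are too narrow, and gene content and mappable length were not analysed here.

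Shorter chromosomes tended to be denser, though the relation was loose. Across the 20 chromosomes, extent and density had a Spearman rho of -0.49, and of -0.34 without chromosomes 16 and 19. As a counterexample, chromosome 18, with an extent of 69.998 Mb, was among the shortest and among the sparsest. Denser chromosomes also tended to have wider peaks, with a Spearman rho of 0.54 between density and median width (0.51 without chromosome 17), but the differences in width were small. The interval of the median width included 253 bp on 18 of 20 chromosomes. The exceptions were chromosome 11, whose median was lowest at 237 bp (229 to 250 bp), and chromosome 17, whose median was highest at 283 bp (267 to 297 bp). The share at the narrowest width ran from 17.3% on chromosome 17 and 18.9% on chromosome 16 to 28.1% on chromosome 6.

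Median gaps were shorter on denser chromosomes, though not in strict order (Spearman rho -0.87 over the 20 chromosomes, -0.86 without chromosome 17). The relation is largely built in, because density and gaps both follow from the number of peaks over the same extent. Chromosome 8, for example, had a median gap of 142.8 kb at 2.43 peaks per Mb, below the 159 kb of chromosome 9 at 3.14 and the 168 kb of chromosome 13 at 3.15. Median gaps ranged from 82.8 kb on chromosome 19 and 87.3 kb on chromosome 16 to 262 kb on chromosome 5 over 19 of the chromosomes. On chromosome 17 the median gap was 19.4 kb (7.32 to 53.3 kb), although its mean gap of 278.8 kb was close to the 279.7 kb of chromosome 1. The mean gap was thus 14.4 times the median on chromosome 17, against 1.82 times on chromosome 10 to 2.89 times on chromosome 8 for the others. The lower quartile of the gap on chromosome 17 was 1.37 kb and its upper quartile 234 kb. Peaks with a neighbour within 10 kb made up 53.8% (48.4 to 59.2%) of those on chromosome 17. Elsewhere they made up between 11.8% (8.59 to 15.6%) on chromosome 5 and 29.6% (25.2 to 34.3%) on chromosome 16, and over all 20 chromosomes 23.1% (22.2 to 23.98%).

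**Figure D3:**
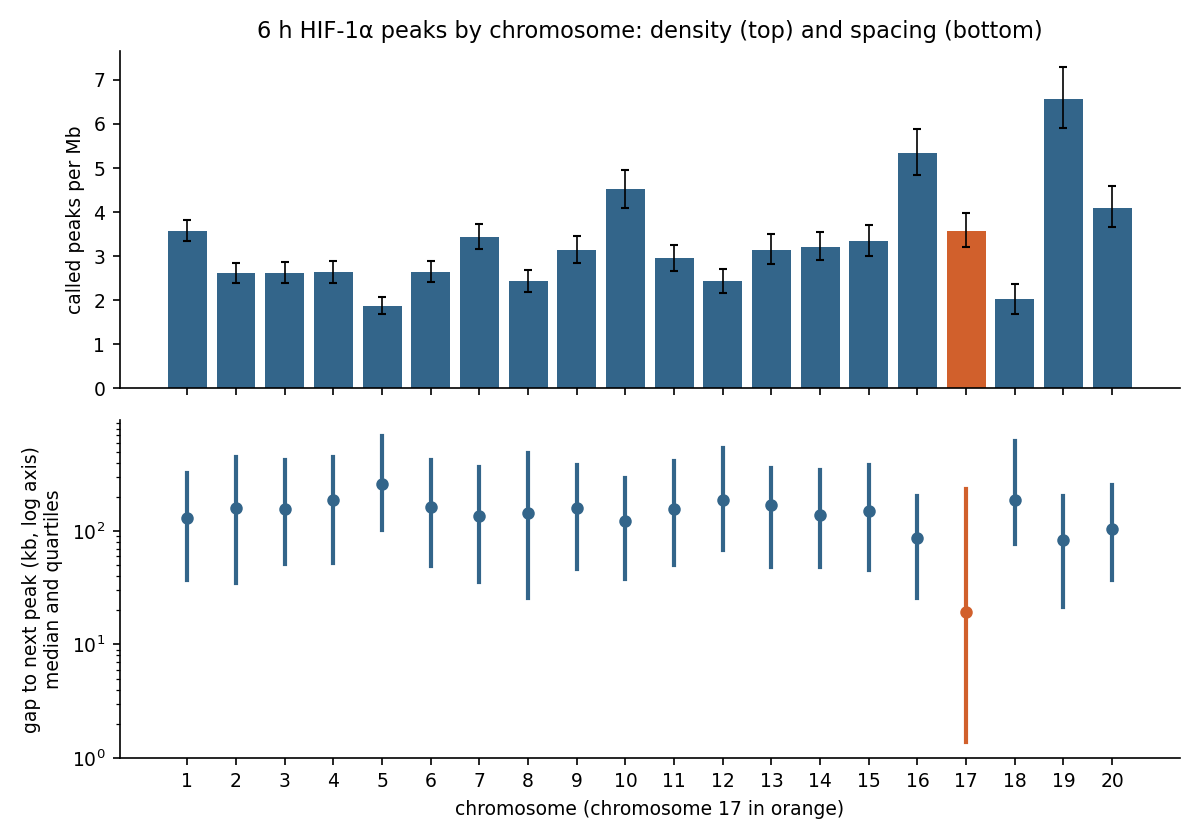
Top, called 6 h HIF-1α peaks per Mb on each numbered chromosome with exact Poisson 95% intervals. Bottom, median gap to the next peak in kb on a log axis with lines from the lower to the upper quartile. Chromosome 17, in orange, has 3.58 peaks per Mb, within the 1.86 to 6.57 per Mb of the other 19 chromosomes. Its median gap of 19.4 kb is below their 82.8 to 262 kb.

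Cut into complete windows of 1 Mb, the chromosomes gave 2657 windows holding 8143 peaks, while 93 peaks fell in the incomplete last windows. A window held 3.06 ± 3.74 peaks (mean ± SD over windows), with a median of 2 and quartiles of 1 and 4. In 504 windows (18.97%) there was no peak, in 521 there was 1 and in 467 there were 2. At the other end, 616 windows (23.2%) held at least 5 peaks, 112 (4.22%) at least 10, 32 at least 15, 9 at least 20 and 4 at least 30. The top 1% of windows, 27 of them, held 626 peaks, or 7.69% of those counted, and the top 10% held 34.7%. A share of 50% of the peaks was reached by 469 windows, or 17.7% of all.

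The variance over windows was larger than the mean, and most of the excess on chromosome 17 came from a few stretches. The variance to mean ratio, which is 1 where counts scatter as independent events at a single rate, was 4.55 over all windows and 3.48 without chromosome 17. By chromosome it was 29.9 on chromosome 17, 7.03 on chromosome 8, 5.17 on chromosome 13 and 4.16 on chromosome 20, and it was lowest on chromosomes 5 (2.07), 4 (2.25) and 9 (2.30). With each run of at least 5 peaks counted as 1 peak, the ratio was 2.63 on chromosome 17, 3.51 on chromosome 8 and 2.36 on chromosome 13. It stayed at 4.16 on chromosome 20, which had no such run and was then highest. Over all windows this setting gave 2.96, and peaks with none within 10 kb gave 2.06. A lower ratio is largely built in here, because both settings remove or collapse closely spaced peaks. The ratio also depended on the window, from 2.15 at 0.1 Mb over 3.75 at 0.5 Mb to 6.09 at 2 Mb and 8.49 at 5 Mb. The mean count per window rose over these sizes from 0.308 to 15.1. Mean counts per 1 Mb window also differed by chromosome, from 1.85 on chromosome 5 to 6.57 on chromosome 19. The ratios were not adjusted for this.

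Chromosome 19 had the highest density with few sparse windows. It had no empty window, a median of 6 peaks per window with quartiles of 4 and 8, and no run of at least 5 peaks. Its windows still varied, up to 19 peaks and with a variance to mean ratio of 2.66, and it had 9.75 peaks per Mb within 2 Mb of its ends against 6.32 elsewhere. Empty windows made up 4.35% of chromosome 10 and 9.09% of chromosome 16. They made up 30.6% of chromosome 8, 28.99% of chromosome 18, and 27.4% of both chromosomes 5 and 17. Chromosome 8 thus combined many empty windows with a few full ones.

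**Figure D4:**
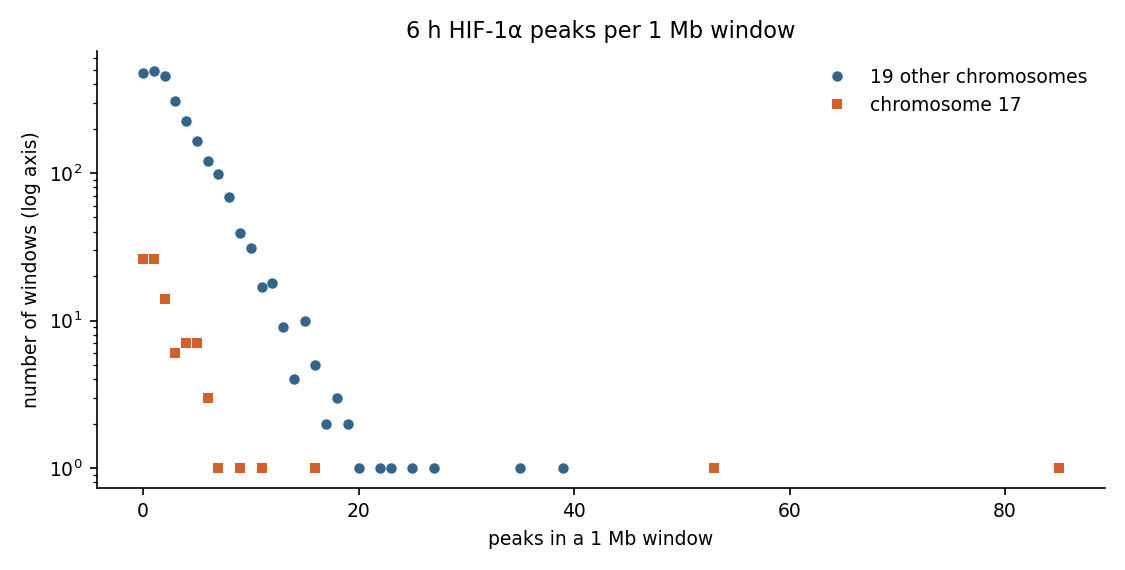
Number of 1 Mb windows (vertical log axis) by the number of 6 h HIF-1α peaks in them, for chromosome 17 (orange squares) and the 19 other chromosomes (blue circles). On the others the counts fall off to windows of 35 and 39 peaks, while chromosome 17 has single windows of 53 and 85 and otherwise at most 16.

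Dense windows were defined as those with at least 10 peaks and at least 3 times the mean of their own chromosome. There were 79 of them (2.97% of windows) in 68 separate stretches, and they held 1211 peaks, or 14.7% of all. They lay on 18 chromosomes. Chromosome 6 had 8, chromosomes 3 and 7 had 7 each, and chromosomes 1, 14, 15 and 20 had 6 each. Chromosomes 5 and 19 had none. The fullest window of chromosome 5 held 9 peaks, under the minimum of 10, and that of chromosome 19 held 19 peaks, which was 2.89 times its high mean of 6.57. Within 2 Mb of a chromosome end lay 12 of the 79 dense windows and 80 of all 2657 windows. Peaks were denser within 2 Mb of the ends than elsewhere on 19 of 20 chromosomes, all but chromosome 13, most of all on chromosome 8 with 17.25 against 2.003 per Mb. The far end was taken as the end of the last peak, so sequence beyond it is left out, which can raise the density near that end.

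The fullest stretch of all was on chromosome 17 at 8000001 to 10000000, where 2 adjoining dense windows held 101 peaks, 14.4 times the chromosome mean. A single window of 53 peaks stood at 2000001 to 3000000 on the same chromosome (15.1 times). On chromosome 8 the first window, 1 to 1000000, held 39 peaks (16.3 times). On chromosome 14 the 2 windows at 8000001 to 10000000 held 38 peaks (5.94 times). On chromosome 13 the window at 103000001 to 104000000 held 35 (11.1 times). These were followed by 5 stretches of 27 peaks. That on chromosome 2, at 7000001 to 8000000, was a single window at 10.4 times the mean. The others were pairs of windows, on chromosome 20 at 51000001 to 53000000 (3.35 times), chromosome 7 at 55000001 to 57000000 (3.93 times), chromosome 1 at 128000001 to 130000000 (3.79 times) and chromosome 6 at 136000001 to 138000000 (5.13 times).

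Within the paired windows on chromosomes 17 and 14, both fullest 1 Mb windows were at 9000001 to 10000000, with 85 and 23 peaks (24.2 and 7.19 times the mean). On the chromosomes not yet described by their fullest window, its count was at most 25. Chromosome 3 had 25 peaks at 55000001 to 56000000, and chromosome 15 had 22 at 1000001 to 2000000. Chromosome 16 had 18 at 7000001 to 8000000, chromosome 20 had 17 at 2000001 to 3000000 and chromosome 6 had 19 at 176000001 to 177000000. Counts of 16 were found on chromosome 1 at 129000001 to 130000000, chromosome 7 at 55000001 to 56000000 and chromosome 11 at 8000001 to 9000000. Chromosome 10 reached 15 at 63000001 to 64000000, chromosome 4 reached 14 at 32000001 to 33000000 and chromosome 9 reached 13 at 98000001 to 99000000. Chromosome 18 reached 10 at 35000001 to 36000000. Chromosome 12 reached 10 in 3 windows, the first of them at 1 to 1000000, and chromosome 5 reached 9 in 2 windows, the first at 1000001 to 2000000. The fullest window of chromosome 19 was at 51000001 to 52000000. The fullest window lay within 2 Mb of an end on chromosomes 8, 15 and 19. On chromosomes 5 and 12 it did so only for the first of the tied windows.

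Dense windows were of differing make-up, some with most of their peaks in 1 run and others with peaks spread over many segments. Peaks were joined into a run where neighbours were at most 10 kb apart. In 7 of the 79 dense windows, more than 50% of the peaks belonged to 1 run, and in 19 the largest run had at least 5 peaks. In 60 no run reached 5 peaks, and in 40 none reached 3. These counts take only the peaks inside the window, so a run across a window edge was cut. The run of 5 peaks on chromosome 14 at 8996605 to 9001725 was one such case. Of the 10 segments of 100 kb in a window, the dense windows had peaks in a median of 6, with a range of 3 to 10. The window on chromosome 16 at 75000001 to 76000000 reached the most segments, with 17 peaks over all 10. Of these peaks 12 had a neighbour within 10 kb, in runs of at most 2. On chromosome 19 the fullest window had peaks in 9 segments, no run above 2 peaks and a median gap of 36.5 kb. At the opposite end, on chromosome 13 all 35 peaks of the fullest window lay in 3 segments with a median gap of 1.94 kb. On chromosome 2, 21 of the 27 peaks at 7000001 to 8000000 formed 1 run.

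**Figure D5:**
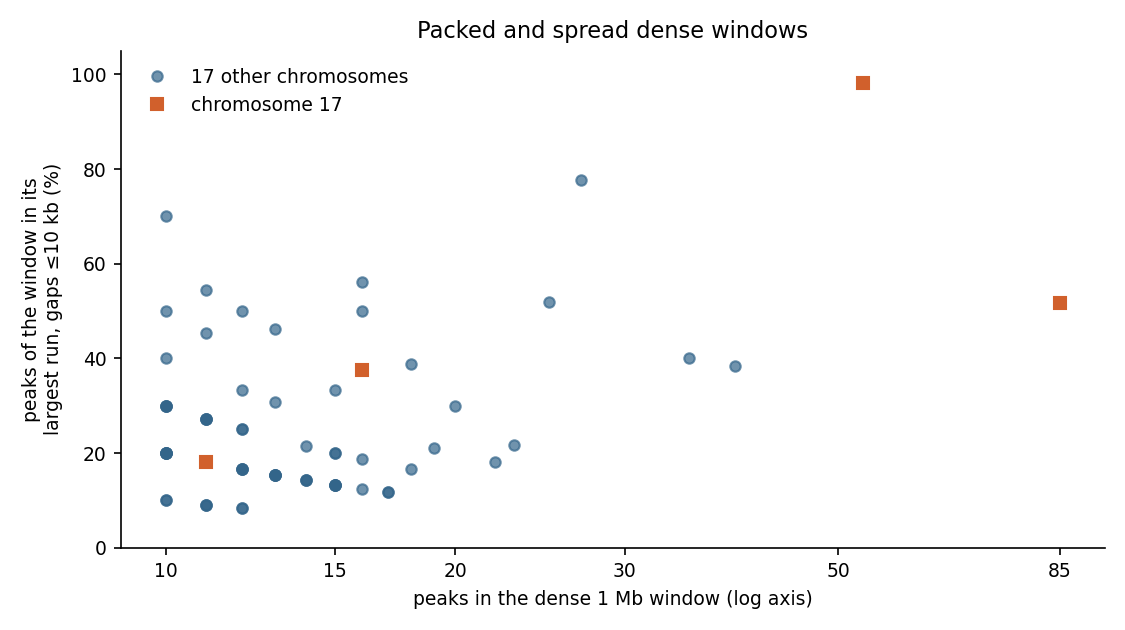
Each point is 1 of the 79 dense 1 Mb windows, by its number of 6 h HIF-1α peaks (horizontal log axis) and the percent of them in its largest run with gaps of at most 10 kb (vertical axis); points can coincide. Most windows of fewer than 20 peaks lie below 40%, and those of 20 to 39 peaks range from 18.2% (chromosome 15) to 77.8% (chromosome 2). The window of 53 peaks on chromosome 17 (orange) lies at 98.1% and that of 85 peaks at 51.8%.

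Most runs were pairs. Of 740 runs of any size, 597 had 2 peaks, 86 had 3 and 21 had 4, and 36 had at least 5. The latter are called tight runs below. They held 363 peaks, or 4.41% (3.97 to 4.87%), on 15 chromosomes and spanned 0.819 Mb in all, which is 0.0307% of the extent. Width went up with run size. Peaks with none within 10 kb had a median width of 248 bp (246 to 252 bp, 6337 peaks), and those in runs of 2 had 254 bp (246 to 263 bp, 1194 peaks). In runs of 3 or 4 it was 278 bp (262 to 291 bp, 342 peaks), in runs of 5 to 9 it was 304 bp (280 to 349 bp, 155 peaks) and in runs of 10 or more 363.5 bp (321 to 399 bp, 208 peaks). The last class came from only 10 runs on 5 chromosomes, and the largest, of 52 and 44 peaks, were both on chromosome 17. Peaks of a run are not independent, so the interval of this class is too narrow. The share at the narrowest width was 24.96% (23.9 to 26.05%) among peaks with none within 10 kb and 0.962% (0.117 to 3.43%) in runs of 10 or more. In 33 of the 36 tight runs the median width was above the 253 bp of all peaks. Peaks covered a median of 16.6% of the span of a tight run, with a range of 8.03 to 64.02%.

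Chromosome 17 held 6 tight runs with 141 peaks, which were 41.2% of its own peaks and 38.8% of all peaks in tight runs. The largest run of all, at 2304582 to 2412362, had 52 peaks in 108 kb. Gaps within it had a median of 1031 bp with quartiles of 618.5 and 1973.5 bp, and the longest was 7343 bp. None of its peaks was at the narrowest width, 18 were over 500 bp, and the median width was 406 bp. The other 5 tight runs lay together at 8947379 to 9272674. This span of 325 kb held 93 peaks, a few of them between the tight runs and not in them. Its median gap was 1421.5 bp and its longest 21806 bp. Of those 93 peaks 21 were over 500 bp and 3 were at the narrowest width, and the median width was 302 bp.

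Outside its tight runs chromosome 17 was sparse and its peaks were of common width. The remaining 201 peaks gave 2.10 per Mb, below the 2.95 per Mb of all 20 chromosomes without tight runs. Their median width was 241 bp (227 to 267 bp), with 28.4% at the narrowest width, against 354 bp (302 to 405 bp) and 1.42% in its tight runs. On the other 19 chromosomes the tight runs had a median width of 324 bp (294 to 367 bp, 222 peaks) and the remaining peaks 251 bp (248 to 254 bp, 7672 peaks). On both sides of this comparison, the median width was higher in tight runs.

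Besides the run of 52 peaks, 9 tight runs had 10 or more. Chromosome 17 had 4 of them within the 325 kb region, with 44 peaks at 9173313 to 9272674, 14 at 9034322 to 9071880, 14 at 9123661 to 9156168 and 11 at 8989396 to 9018610. Chromosome 2 had 21 peaks at 7097545 to 7159151 (61.6 kb), with a median gap of 2131.5 bp and a median width of 408 bp. Chromosome 8 had 15 at 20134 to 47585 (27.5 kb), close to the start of the chromosome. Chromosome 13 had 14 at 103581203 to 103627758 and 10 at 103554691 to 103569689. Chromosome 3 had 13 at 55745005 to 55760356, and these were packed most closely of the 10, with 13 peaks in 15.4 kb, a median gap of 430.0 bp and 39.2% of the span covered.

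Smaller runs differed in how closely they were packed. On chromosome 18, 7 peaks at 35892840 to 35898604 lay in 5.77 kb and covered 64.02% of it, with a median width of 579 bp and a median gap of 319 bp. They made up 7 of the 10 peaks of the fullest window there. On chromosome 1, the largest run at 204825768 to 204845734 held 7 peaks in 19.97 kb, and its median width of 750.0 bp was the highest of the 36 tight runs. On chromosome 7, by contrast, 8 peaks at 55361804 to 55384462 had a median width of 263.5 bp and covered 9.05% of the span. The largest runs of chromosome 11 (8406914 to 8425291), chromosome 15 (5128642 to 5142203), chromosome 6 (43736959 to 43747733) and chromosome 16 (55873907 to 55886265) had 9, 7, 6 and 6 peaks. Chromosomes 4 (54271943 to 54283117), 12 (94711345 to 94717148) and 14 (8996605 to 9001725) had 5.

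No tight run was found on chromosomes 5, 9, 10, 19 and 20. Their largest runs had 4 peaks on chromosome 5 (148303324 to 148306173), chromosome 19 (35645768 to 35652492) and chromosome 20 (72171077 to 72182582). Those on chromosome 9 (32543722 to 32544839) and chromosome 10 (64369938 to 64373394) had 3. The run on chromosome 9 spanned 1.12 kb with a median width of 199 bp, the narrowest in the list. The coefficients of variation of the gap were 1.27 on chromosome 19, 1.275 on chromosome 10, 1.43 on chromosome 5, 1.52 on chromosome 9 and 1.60 on chromosome 20. Values on chromosomes with tight runs lay on either side of these last 3, from 1.37 on chromosome 12 and 1.42 on chromosome 4 to 2.13 on chromosome 17.

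Long stretches without a called peak were common. The 621 gaps of at least 1 Mb together spanned 1116 Mb, or 41.9% of the extent, 171 gaps were at least 2 Mb and 62 at least 3 Mb, the last on 17 chromosomes. The longest were on chromosome 5 at 91884567 to 97644414 (5.76 Mb), chromosome 8 at 124813910 to 130286859 (5.47 Mb) and at 72594210 to 77928831 (5.33 Mb), chromosome 6 at 85357421 to 90539398 (5.18 Mb) and chromosome 9 at 74406113 to 79369686 (4.96 Mb). Chromosomes 10 and 19 had no gap of 2 Mb or more, with longest gaps of 1.64 and 1.23 Mb. Centromeres, assembly gaps and sequence to which reads cannot be mapped were not analysed here, so an empty stretch is not shown to be free of binding.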

How the data were processed

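The authors deposited HIF-1α peak positions as start and end per peak, with no score, height or p-value. Bowtie2 2.0 and MACS2 were used, per the submitters' processing notes. Their settings, the genome build and any pooling were not given in the sources used here, and read depth is unknown, so no value is corrected for it. By file name, the list was called against the 6 h input. Starts were read as 0-based, as in BED files, and are printed counted from 1. If they were already 1-based, every width would be 1 bp greater.

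Peaks were counted by midpoint in windows, and the extent of a chromosome is the end of its last 6 h peak, a lower bound. Intervals are exact binomial, exact Poisson or order-statistic (medians) at 95%, reflect counting alone, and would hold for independent peaks. The regions named are, by rule, the fullest window and the run with most peaks on each chromosome (ties: the first window, the shorter run), the 10 fullest dense stretches and tight runs, the 10 widest peaks, the 5 longest gaps, and the chromosomes with extreme values. A few others, and the splits of widths by run size and by distance class, were chosen after values were seen. The chromosomes described and the thresholds were set with earlier results of these data known. Fixed gene and marker lists were not used, because the build of the peak positions is not stated and the gene table could not be matched to it. Alternatives covered the list (widest 50%, merging, chromosomes or ends left out), the windows and the thresholds. Functions were tested on simulated lists. Python 3.11.15, numpy 2.4.6, pandas 2.3.3, scipy 1.17.1 and matplotlib 3.10.9 were used.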

Additional observations from a re-analysis of the deposited data

How the results depend on the processing

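Of 56 alternative values for 8 results, 29 stayed within the 95% interval of the reported value or, for counts and variance to mean ratios, within 1.5 times it, and 27 moved. The widest 50% of peaks gave 4118 peaks, 1.54 per Mb, a median width of 333 bp, a median gap of 256 kb, 18.2% with a neighbour within 10 kb, 24 dense windows and 17 tight runs; the smaller list and the choice by width are part of the setting. Merging within 1 kb gave 2.89 per Mb, 258 bp, 158 kb, 14.2% and 16 tight runs. Without chromosome 17, 21.7% had a neighbour within 10 kb. With chromosomes X and Y the density was 2.96 per Mb. Without 2 Mb at each end it was 2.96 per Mb and the median gap 147 kb. Peaks with none within 10 kb had a median width of 248 bp and a variance to mean ratio of 2.06, and counting each tight run as 1 peak gave a ratio of 2.96. The share with a neighbour was 18.7% within 5 kb and 30.4% within 20 kb. Dense windows numbered 33 at 0.5 Mb, 46 at 2 Mb, 45 at 4 times the mean and 121 with at least 5 peaks. Runs numbered 143 with at least 3 peaks and 10 with at least 10. Beyond what each setting takes out or redefines, the cause was not tested.

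Leaving out chromosome 17 or tight runs for the width classes, and tight runs for the ratio on chromosome 17, were chosen after seeing the data. Of these 11 values 9 stayed and 2 moved. No paired analysis was possible because the 6 h ChIP list is the single list of its group. Since depth is unknown, it cannot be said how many sites were missed, nor whether peaks of a run are separate sites.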

Other observations

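Windows next to each other on a chromosome had similar numbers of 6 h HIF-1α peaks, and the likeness faded with distance. Over 2637 pairs of adjoining 1 Mb windows the counts had a Spearman rho of 0.374, and of 0.366 without chromosome 17. It was 0.24 for windows 2 apart, 0.13 for windows 5 apart and 0.037 for windows 20 apart. With windows ranked within their own chromosome, so that differences in mean density between chromosomes do not enter, the correlation of ranks was 0.30 for adjoining windows, 0.17 at 2 apart, 0.054 at 5 apart and -0.035 at 20 apart. Windows are not independent of each other, and these values are a description.

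The widths of neighbouring peaks were only loosely alike. Across pairs of neighbours the Spearman rho of their widths was 0.17 (515 pairs) for gaps under 1 kb, 0.12 (644 pairs) for 1 to 10 kb and 0.02 (2311 pairs) for 10 to 100 kb. For gaps of 100 kb to 1 Mb, the largest class with 4125 of 8216 pairs, it was -0.0011. It was 0.11 (621 pairs) for gaps of 1 Mb or more.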
